A study of Mus musculus with 6 samples.

Results

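The tripartite motif (TRIM) genes encode proteins built from a RING finger, 1 or more B-boxes and a coiled coil, most of which act as ubiquitin ligases. They were measured here by RNA sequencing in bone marrow-derived macrophages, primary macrophages grown in culture from the bone marrow of wild-type mice. One group of 3 libraries (P1, P2 and P3) came from macrophages given medium conditioned by HTR2C-positive alveolar macrophages, that is, macrophages resident in the air spaces of the lung that were sorted for the serotonin receptor 2C. The other group of 3 libraries (N1, N2 and N3) came from macrophages given medium conditioned by HTR2C-negative alveolar macrophages. In both groups the donors of the alveolar macrophages were 8 to 12 weeks old, the medium was conditioned for 48 h and mixed with an equal volume of fresh medium, and the exposure lasted 24 h. Whether the numbered libraries of a group came from different animals, cultures or lots of medium is not said in the labels. The p-values therefore rest on the spread of these 6 libraries, part of which may be technical. Macrophages without conditioned medium were not analysed here. The members are the genes whose symbol is Trim, a number and at most 1 further letter, which gave 68 of the 21959 genes in the table. Of these, 35 had enough reads to be tested and 33 did not.

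A RING ligase binds a ubiquitin-charged E2 enzyme and passes the ubiquitin to a protein that its C-terminal domain recognises, and that domain (B30.2/SPRY, NHL, PHD with bromodomain and others) divides the family into classes. Several TRIM ligases attach ubiquitin chains to sensors and adaptors of antiviral and NF-κB signalling, among them TRIM25 on the RNA sensor RIG-I and TRIM65 on the RNA sensor MDA5. Many TRIM genes are themselves induced by interferon in macrophages. The name of a ligase does not suit every member, since 5 of them (Trim14, Trim16, Trim29, Trim44 and Trim66) encode proteins without a RING domain.

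The 6 libraries held 12843971 to 16031723 counts, and the TRIM genes took 0.285%, 0.219% and 0.257% of them in P1, P2 and P3 and 0.248%, 0.288% and 0.253% in N1, N2 and N3, so these shares overlapped. All 8 macrophage markers had reads, with summed levels of 19382 to 22632 counts scaled to a common library size (CPM, after TMM scaling) in HTR2C-positive medium and 20010 to 22280 CPM in HTR2C-negative medium. The alveolar macrophage list summed to 116 to 137 CPM in HTR2C-positive and 121 to 126 CPM in HTR2C-negative medium. The neutrophil list summed to 1116 to 1404 and 950 to 1168 CPM, with reads for 6 of its 8 genes and none for the defining Ly6g and Cxcr2. The T cell, B cell, NK cell, dendritic cell, fibroblast and epithelial lists each stayed at or under 43.7 and 30.4 CPM, and their part in the results was not tested. Htr2c itself had 0 counts in every library. It was used to sort the cells that made the medium, so it does not check the labels of these libraries. P1 and N2 deviated from their groups in the same direction, with r = 0.31 across genes, although they carry opposite labels. Where leaving both out changes a call, the value without them is also given. Both were picked for a deviation seen in these same data, so p-values from that fit are not independent support. The groups also differed by base composition. The slope of log2 expression, relative to the mean of the libraries, on transcript GC content was 0.24, 0.16 and 0.14 per 10 GC points in P1, P2 and P3 and -0.31, -0.04 and -0.19 in N1, N2 and N3, so that GC-rich genes tended to read higher in every library with HTR2C-positive medium.

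The TRIM genes of these macrophages spanned a wide range of levels, and a single gene cluster held most of the reads. Per length, in fragments scaled to gene length and library total (FPKM), the mean over all libraries ranged from 0.119 to 227 across the 35 tested members. It was above 10 FPKM for 9 members, of which 6 belong to the Trim5/12/30/34 cluster, between 1 and 10 FPKM for 17 and under 1 FPKM for 9. Trim30a, which in mice reduces NF-κB signalling by promoting the loss of TAB2 and TAB3, had the highest level and ranked 205 among all genes. Its levels were 252, 185 and 226 FPKM in P1, P2 and P3 and 216, 273 and 213 FPKM in N1, N2 and N3. Trim30c, a paralog of Trim30a, came next with 231, 152 and 163 FPKM in HTR2C-positive medium and 213, 224 and 222 FPKM in HTR2C-negative medium. Trim30a and Trim30c overlapped in level within each medium, so their order is not resolved. Trim30d, the next paralog, had 133, 119 and 135 FPKM in HTR2C-positive medium and 140, 154 and 138 FPKM in HTR2C-negative medium, below every value of Trim30a and Trim30c in the same medium. Trim25 followed with 36.2 to 48.8 FPKM in HTR2C-positive medium and 34.8 to 40.8 FPKM in HTR2C-negative medium. Trim13, a ligase anchored in the endoplasmic reticulum membrane, was lower again at 25.1 to 28.2 and 27.4 to 31.7 FPKM. Trim34a, Trim12a and Trim35 had overlapping levels, between 7.92 and 21.2 FPKM over all 6 libraries.

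**Figure D1:**
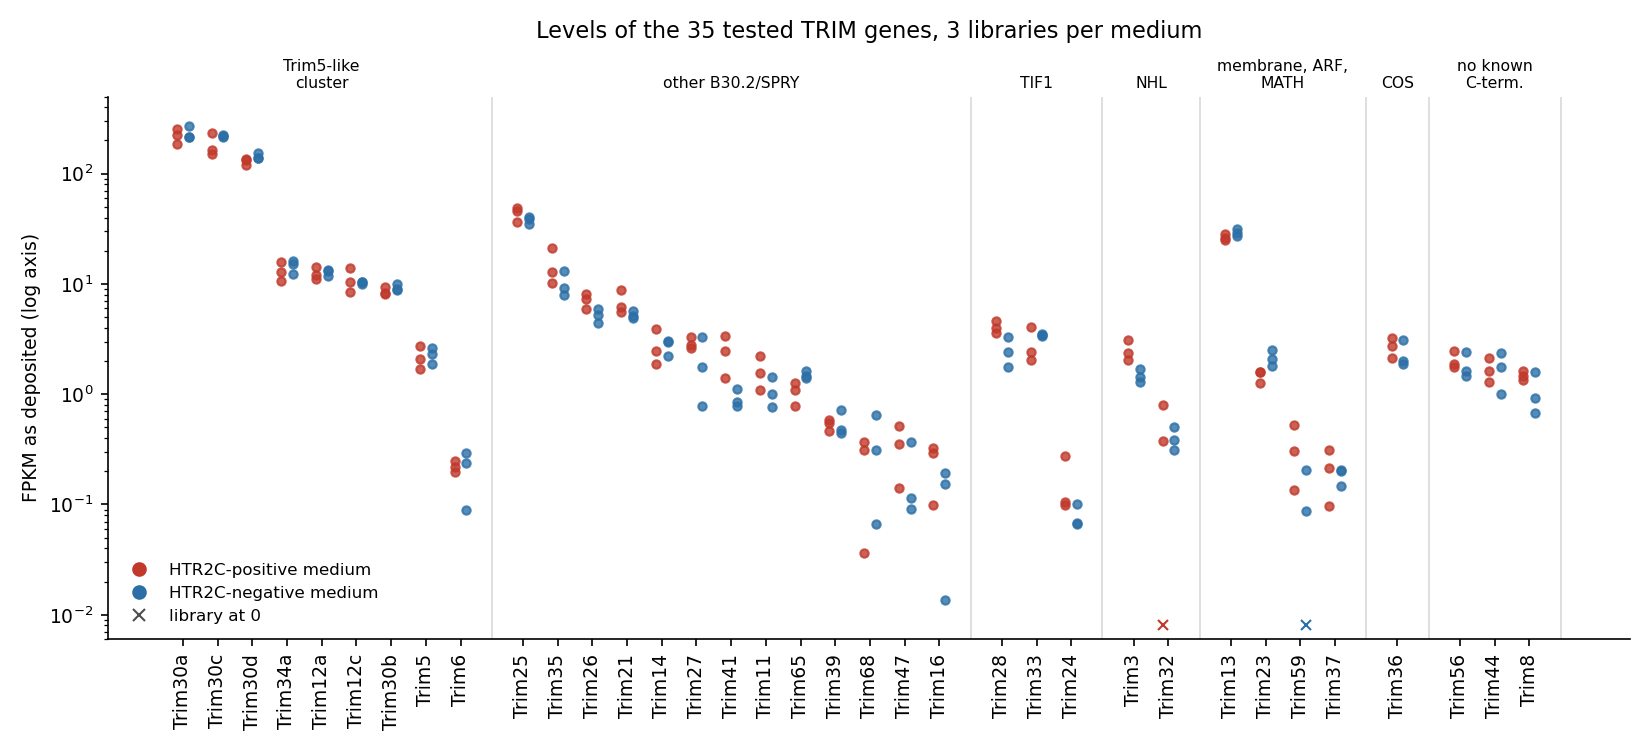
Deposited FPKM (log axis) of the 35 tested TRIM genes, each point 1 library of the HTR2C-positive or HTR2C-negative medium group and crosses marking a library at 0. The members run from Trim30a, with a mean of 227 FPKM, down to 0.119 FPKM, and the points of both groups are intermingled for most genes.

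None of the 35 tested TRIM genes passed the test between the media after adjustment over all genes. In bulk samples such as these, fewer cells of a type and less RNA per cell cannot be told apart. In edgeR's quasi-likelihood test, 0 of the 10177 tested genes had a Benjamini-Hochberg adjusted p under 0.05 (percent called 0%), against 0 with limma-voom. DESeq2 called 386 of 6217 (6.21%), none of them a TRIM gene. It gave no adjusted p to Trim41, Trim59, Trim11, Trim24, Trim8, Trim16, Trim47, Trim68, Trim39, Trim32, Trim6 or Trim37, so these could not be called. At an unadjusted p under 0.05, 3 members were higher in HTR2C-positive medium (Trim41, Trim28 and Trim3) and 3 were lower (Trim23, Trim30c and Trim65). The 6 are 17.1% of the tested members, near the 16.6% of all tested genes that passed the same threshold (7.90% higher and 8.71% lower). The groups did not overlap for 3 members in the higher and 5 in the lower direction, 22.9% of the members, against 22.3% of all tested genes (10.9% higher and 11.5% lower). Log2 fold changes of HTR2C-positive over HTR2C-negative medium were positive for 17 members (52.1% of all tested genes) and negative for 18 (47.9%), with a median of -0.07, a range of -0.69 to 1.57 and a median of 0.02 over all tested genes. Neither the number of TRIM genes past the threshold nor their median thus stood away from the background of the whole table. Without N1 only Trim41 kept an unadjusted p under 0.05, and without P1, N1 or N3 the members with a lower value and such a p numbered 1, 0 and 0. The shares of all genes in those fits are not given here. Smaller counts there cannot be told apart from a loss over the whole table.

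**Figure D2:**
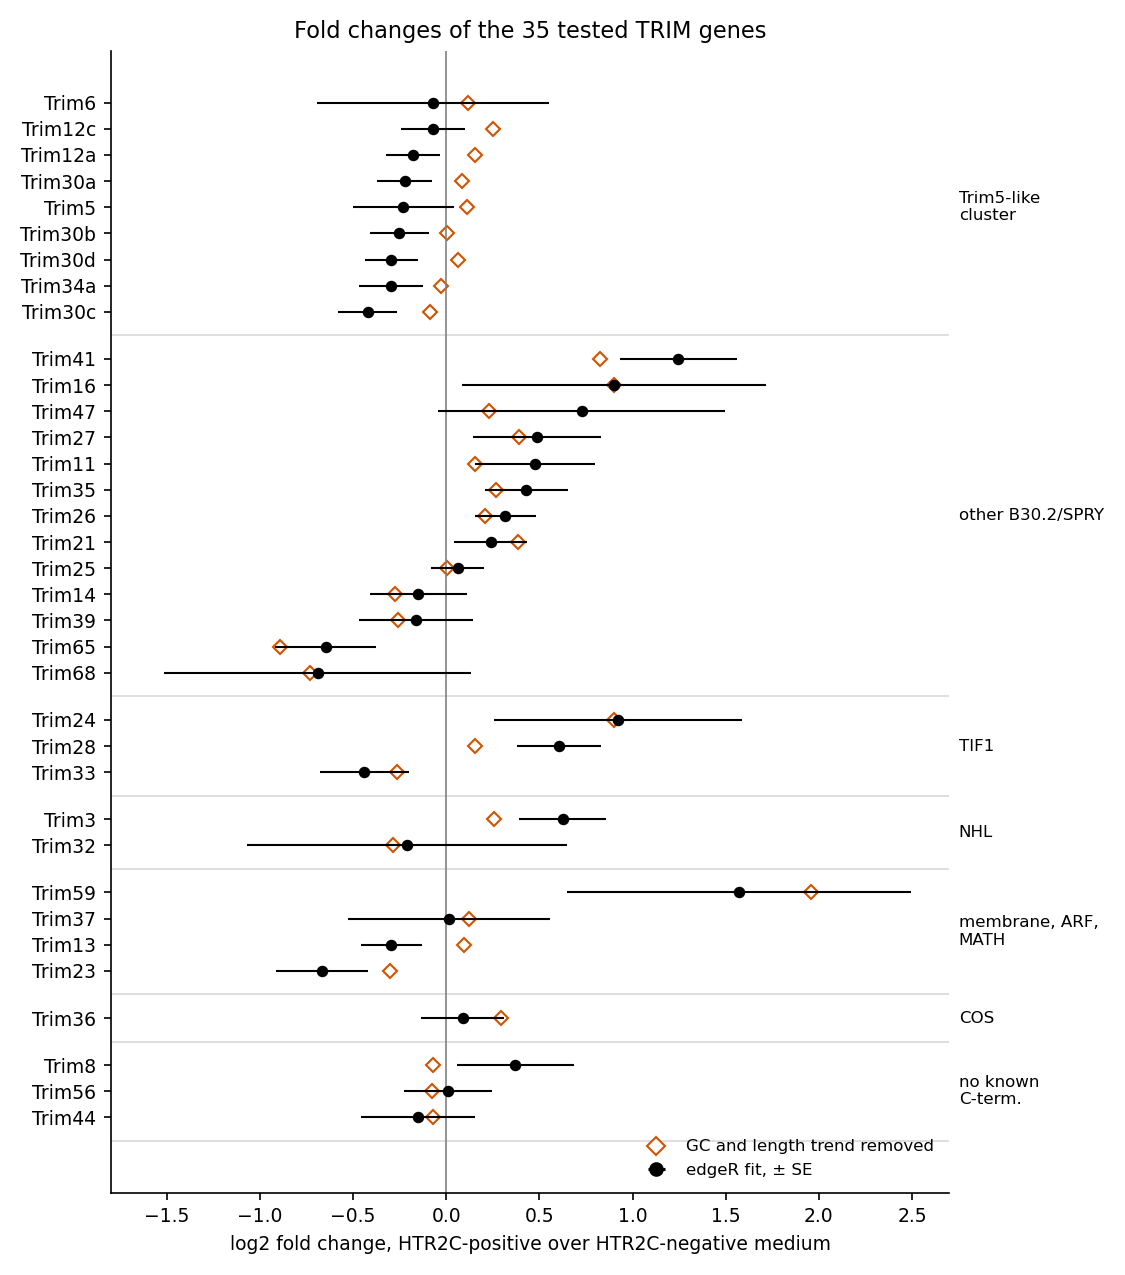
Log2 fold change of HTR2C-positive over HTR2C-negative medium for the 35 tested TRIM genes. Filled points carry a standard error (SE) derived from the F statistic of the edgeR fit. Diamonds give the value after removal of the trend with GC content and length. The filled points run from -0.69 to 1.57 and lie about evenly on both sides of 0, and several diamonds lie nearer to 0 or across it.

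Trim41, a RING and SPRY ligase that in human cells ubiquitinates influenza nucleoprotein, had the smallest p of the family. It had 10.5, 5.16 and 8.10 CPM in P1, P2 and P3, against 3.36, 3.71 and 2.96 CPM in N1, N2 and N3. All 3 values with HTR2C-positive medium lay above all 3 with HTR2C-negative medium, and P2 was the nearest to them. The mean was 7.92 ± 2.67 CPM in HTR2C-positive medium and 3.34 ± 0.378 CPM in HTR2C-negative medium (SD, n = 3 each), a log2 fold change of 1.25 (SE 0.31), or 2.37-fold. The edgeR p was 0.00158 unadjusted and 0.0985 adjusted over all genes. The unadjusted p stayed under 0.05 in 16 of 16 alternative settings, with log2 fold changes of 0.78 to 1.47 and adjusted p-values of 0.00814 to 0.749. The lowest of these came with no filter on low counts, where Trim41 was called along with 2.84% of all genes. The gene lies at chr11:48697231-48708180 on the minus strand (GRCm39) and overlaps 31 bases of Rack1 on the opposite strand. Rack1 had a log2 fold change of 0.22 with an unadjusted edgeR p of 0.213. Its median was 2570 counts over the libraries, against 66 for Trim41. The sources used here do not say whether reads were counted by strand. The Trim41 transcript has a GC content of 58.3%. With the trend of GC content and length removed the log2 fold change of Trim41 was 0.82 with an unadjusted p of 0.0152.

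Trim28 (KAP1), the corepressor that KRAB zinc finger proteins recruit to silence retroelements, had the highest mean FPKM of the chromatin-bound TRIM genes, with levels that overlapped those of Trim33. It had 13.2, 17.3 and 18.2 CPM in P1, P2 and P3, against 8.31, 12.9 and 10.8 CPM in N1, N2 and N3. The groups did not touch, but P1 and N2 were close to each other. The log2 fold change was 0.61 (SE 0.23, edgeR unadjusted p = 0.0190, adjusted p = 0.212), and the unadjusted p was above 0.05 without P2, P3 or N1. With the trend of GC content and length removed it was 0.15 with an unadjusted p of 0.485, the transcript having a GC content of 59.6%. Without P1 and N2 it was 0.91 with an adjusted p of 0.0143, in a fit that called 10.9% of all genes and over alternatives that ranged from 0.0143 to 0.902. Trim28 lies at chr7:12733041-12764962 on the plus strand and overlaps 6137 bases of Zbtb45 on the opposite strand. Zbtb45 had a log2 fold change of -0.42 (unadjusted p = 0.0800), and the sources used here do not say whether reads were counted by strand.

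The other tested chromatin-bound members, Trim33 and Trim24, had a negative and a positive log2 fold change. Trim33 (TIF1γ), a partner of SMAD proteins, had 17.6, 24.4 and 37.1 CPM in HTR2C-positive medium and 39.3, 31.6 and 36.5 CPM in HTR2C-negative medium. The groups overlapped through P3, with a log2 fold change of -0.44 (SE 0.24, unadjusted p = 0.0868). It was -0.20 without P1 and -0.76 without P3, where the unadjusted p was 0.00470. Trim24 (TIF1α) was low, at 0.799, 2.45 and 0.786 CPM against 0.972, 0.550 and 0.605 CPM. P2 alone stood apart. The log2 fold change was 0.92 with an unadjusted p of 0.190, and 0.17 without P2. Of the 3 tested genes in this class, 1 passed an unadjusted p under 0.05, in the higher direction, against 7.90% of all tested genes. A share over 3 genes says little beside it.

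Trim3, an NHL repeat ligase known best from neurons, had 9.53, 9.73 and 13.2 CPM in P1, P2 and P3, against 6.63, 7.36 and 7.06 CPM in N1, N2 and N3. The groups did not overlap. The log2 fold change was 0.63 (SE 0.23, edgeR unadjusted p = 0.0192, adjusted p = 0.213), not under an unadjusted p of 0.05 without P3 or N1, and 0.25 with the trend of GC content and length removed (unadjusted p = 0.292). Trim32, the other tested member with NHL repeats, had 1.08, 0 and 2.42 CPM against 1.15, 1.17 and 1.75 CPM, values that overlapped.

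Trim23, which carries an ARF-type GTPase domain and in human cells acts in antiviral signalling, was lower in every library with HTR2C-positive medium. It had 6.45, 9.53 and 8.64 CPM in P1, P2 and P3, against 13.6, 9.76 and 15.7 CPM in N1, N2 and N3. N2 was nearly as low as P2. The log2 fold change was -0.67 (SE 0.25, edgeR unadjusted p = 0.0190, adjusted p = 0.212), and with the trend of GC content and length removed it was -0.30 with an unadjusted p of 0.208. The unadjusted p was also above 0.05 without P1, N1 or N3. Its transcript is AT-rich, with a GC content of 37.4%.

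Trim65, the ligase that attaches ubiquitin to MDA5, had 4.11, 6.75 and 7.01 CPM in P1, P2 and P3, against 10.9, 8.18 and 8.94 CPM in N1, N2 and N3. Again the groups did not overlap. The log2 fold change was -0.65 (SE 0.27, edgeR unadjusted p = 0.0335, adjusted p = 0.262), and without P1 it was -0.42. The unadjusted p was above 0.05 without P1, N1 or N3, and without both P1 and N2. Of the 3 members with a lower value and an unadjusted p under 0.05, it alone had a log2 fold change that was further from 0 with the trend of GC content and length removed, at -0.89 with an unadjusted p of 0.00860. Trim65 and Trim47 overlap over 5365 bases on the same strand and their transcripts share 129 stretches of 100 bases, 2.19% of those of Trim65. Trim47 was low, at 0.856, 1.46 and 0.363 CPM against 0.354, 0.963 and 0.269 CPM. Ifih1, which encodes MDA5, had a value of -0.37 on the same log2 scale (SE 0.16, unadjusted p = 0.0405, adjusted p = 0.277) and -0.14 with the trend removed.

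**Figure D3:**
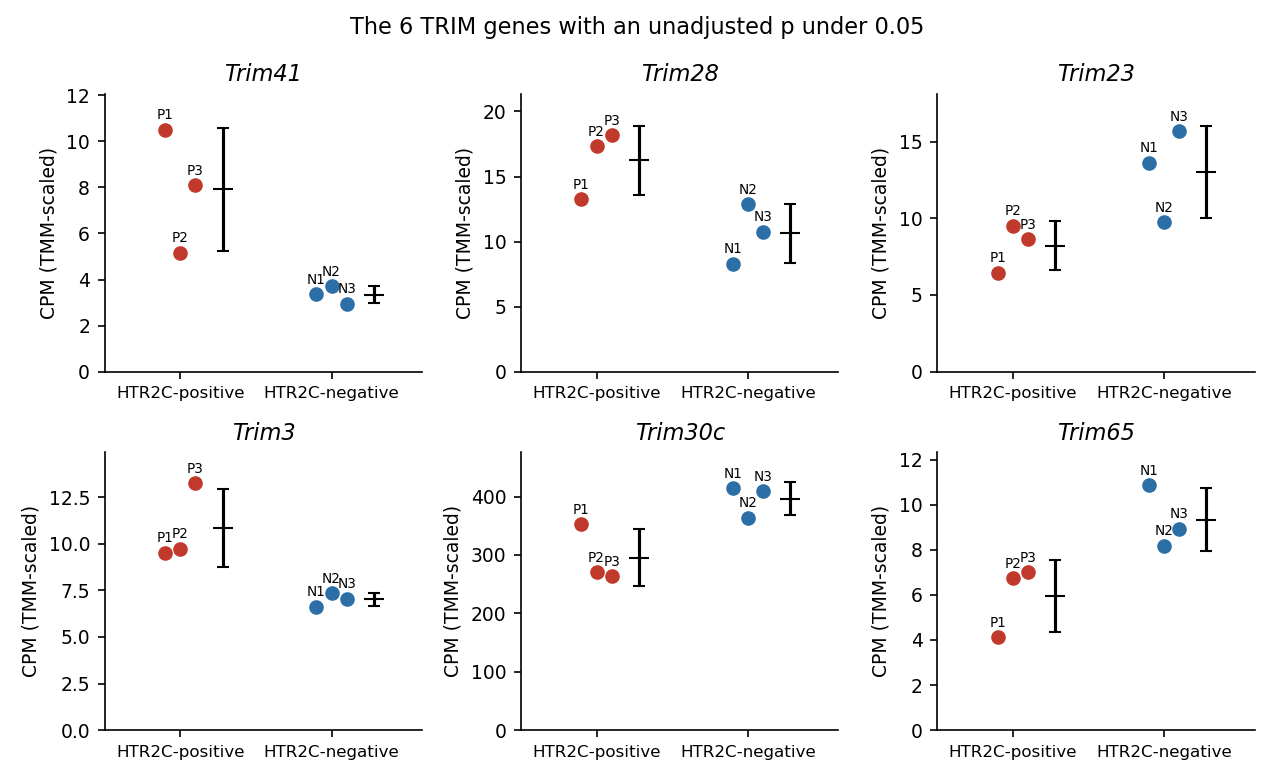
TMM-scaled CPM of the 6 TRIM genes with an unadjusted p under 0.05, with 1 point per library and the mean ± SD over 3 libraries of HTR2C-positive (left) and HTR2C-negative medium (right). The groups do not overlap for any of the 6, and Trim23 has its closest values at 9.53 CPM in P2 and 9.76 CPM in N2.

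The Trim5/12/30/34 cluster is a block of 10 TRIM genes that lie side by side at chr7:103868000-104157056 (GRCm39), a span of 289 kb in which the table lists no other gene. The order is Trim6, Trim34a, Trim5, Trim12a, Trim34b, Trim12c, Trim30b, Trim30c, Trim30a and Trim30d, with 3 on the plus and 7 on the minus strand. Trim5 in primates encodes a factor that restricts retroviruses, and the genes of the mouse cluster are its relatives. Because many genes of antiviral defence carry an interferon-stimulated response element, whose core is GAAA, 2 bases and GAAA, the promoter windows of RefSeq (250 bases before and 50 after the start site, assembly GRCm38.p6) were searched for GAAANNGAAA on both strands. A window was found for 53 of the 68 members. The core was present in 6 of the 10 cluster genes (60.0%), in 8 of 26 tested members with a window (30.8%) and in 9 of all 53 (16.98%). Among all tested genes with a window it was in 357 of 8214 (4.35%), and among the interferon-stimulated genes listed here in 11 of 21 (52.4%). A match describes letters and is not a binding site, and the start sites are those of RefSeq. The stretches from 70 bases before to 30 after the start site are shown for the cluster genes with a core, for Trim21 with its 2 overlapping cores and for Trim30c, the most strongly expressed cluster gene without one. They run 5′ to 3′ along the gene with the core in capitals, and outside Trim21 the core reads in the opposite orientation.
Trim30a (chr7:104465164-104465263, minus strand): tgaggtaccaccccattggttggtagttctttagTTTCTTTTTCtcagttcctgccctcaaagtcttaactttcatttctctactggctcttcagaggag
Trim30d (chr7:104507820-104507919, minus strand): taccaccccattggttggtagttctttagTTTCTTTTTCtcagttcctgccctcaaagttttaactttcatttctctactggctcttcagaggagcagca
Trim5 (chr7:104288077-104288176, minus strand): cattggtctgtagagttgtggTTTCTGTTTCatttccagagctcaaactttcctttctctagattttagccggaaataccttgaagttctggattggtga
Trim12a (chr7:104315466-104315565, minus strand): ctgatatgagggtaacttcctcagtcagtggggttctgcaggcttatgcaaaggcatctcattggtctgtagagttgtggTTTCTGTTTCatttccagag
Trim12c (chr7:104353320-104353419, minus strand): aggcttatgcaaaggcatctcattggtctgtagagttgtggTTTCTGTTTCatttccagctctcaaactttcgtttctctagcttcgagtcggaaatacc
Trim34a (chr7:104244387-104244486, plus strand): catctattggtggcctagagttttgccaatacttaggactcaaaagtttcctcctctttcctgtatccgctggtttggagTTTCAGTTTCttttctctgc
Trim21 (chr7:102565453-102565552, minus strand): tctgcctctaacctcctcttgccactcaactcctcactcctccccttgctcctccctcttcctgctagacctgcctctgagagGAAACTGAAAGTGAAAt
Trim30c (chr7:104400749-104400848, minus strand): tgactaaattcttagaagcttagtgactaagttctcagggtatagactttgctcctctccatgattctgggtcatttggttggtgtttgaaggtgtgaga

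The paralogs share long runs of these letters. Over the whole windows of 300 bases, at any offset from the start sites, the longest identical run was 241 bases between Trim12a and Trim5 and 118 between Trim30a and Trim30d, both holding the core. The longest run that Trim12c shared with Trim12a and with Trim5 was 71 bases and does not hold the core. A further run, visible in the stretches above, is identical in Trim12c, Trim12a and Trim5 and does hold it. Trim30a has a further RefSeq start site with a core at position 3, counting the start site as 1. No core was in the windows of Trim30b, Trim30c, Trim34b and Trim6, which says only that these letters are not in those windows.

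The cluster genes leaned to lower values in HTR2C-positive medium, as did genes of similar GC content over the whole table. How many cluster genes were negative differed with the scaling and with the trend of GC content and length removed. All 9 tested cluster genes had a negative log2 fold change, from -0.42 to -0.07 with a median of -0.23, against 47.9% negative over all tested genes. With 1 library left out 8 or 9 of the 9 were negative, and with limma-voom 8. With library totals as the only scaling 7 of the 9 were negative and the median was -0.08, beside a median over all genes of 0.16 in place of 0.02. With the trend of GC content and length removed 7 of the 9 were positive and the median was 0.09, beside 0.04 over all genes. The median GC content of the 9 genes was 41.0%, against 48.9% over all tested genes. Their GC contents, 39.1% to 44.7%, fall within bins 1 to 3 of 10 equal bins of genes by GC content, counted from the lowest. The median log2 fold changes of all genes in these bins were -0.32, -0.23 and -0.16. The cluster median of -0.23 lay within that range, so the lean was not peculiar to the cluster. The part that base composition has in the cluster values was not tested further. At an unadjusted p under 0.05 the count was 1 of 9 (Trim30c), against 8.71% of all genes with a lower value. It was 0 of 9 without P2, P3, N1 or N3, fits for which no share over all genes is given here. With neither P1 nor N2 it was 4 of 9 (Trim30c, Trim30d, Trim34a and Trim30b), against 12.7% of all genes with a lower value. The median of the 9 in that fit was -0.32.

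Trim30c had 353, 271 and 263 CPM in P1, P2 and P3, against 415, 364 and 410 CPM in N1, N2 and N3. P1 came within a small distance of N2, and no value of the HTR2C-positive group reached the other group. The means were 296 ± 49.5 CPM in HTR2C-positive medium and 396 ± 28.03 CPM in HTR2C-negative medium (SD, n = 3 each), with a log2 fold change of -0.42 (SE 0.16, edgeR unadjusted p = 0.0203, adjusted p = 0.216). Without P1 and N2 it was -0.61 with an adjusted p of 0.00111, in a fit that called 10.9% of all genes. That adjusted p was the lowest over alternatives that reached 0.918. With library totals alone the log2 fold change was -0.27 and with the trend removed -0.09 (unadjusted p = 0.596). In FPKM, which is scaled by the total alone, P1 exceeded all 3 libraries with HTR2C-negative medium.

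Trim30d and Trim30a had groups that did not overlap in CPM without passing the threshold. Trim30d had 444, 465 and 478 CPM in P1, P2 and P3, against 597, 546 and 560 CPM in N1, N2 and N3, with a log2 fold change of -0.29 (SE 0.14, unadjusted p = 0.0572). Trim30a had 918, 791 and 872 CPM, against 1010, 1059 and 944 CPM, with a log2 fold change of -0.22 (SE 0.15, unadjusted p = 0.155). With the trend of GC content and length removed both were on the other side of 0, at 0.061 for Trim30d and 0.087 for Trim30a. In FPKM, scaled by the total alone, Trim30a overlapped, with 252 in P1 and 226 in P3 against 216 in N1 and 213 in N3. Trim30d did not overlap in FPKM, with at most 135 in P3 against at least 138 in N3. Trim34a had 36.5, 28.9 and 31.3 CPM against 44.9, 39.3 and 34.7 CPM, which overlapped, with a log2 fold change of -0.30 (SE 0.17, unadjusted p = 0.106). Trim12a had 73.7, 66.2 and 65.8 CPM against 77.7, 71.3 and 83.3 CPM, also overlapping. Trim30b, Trim5, Trim12c and Trim6 had log2 fold changes of -0.25, -0.23, -0.07 and -0.07. Shared sequence could move reads between some of these genes. Trim34a shares 21.0% of its stretches of 100 bases with Trim34b, Trim12c 7.02% with Trim5 and Trim30d 4.57% with Trim30a, while Trim30b and Trim30c share none with another member.

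As a share of the reads of the whole family, which does not depend on how libraries are scaled, the cluster held 76.7%, 75.8% and 75.1% in P1, P2 and P3 and 81.0%, 80.3% and 79.1% in N1, N2 and N3. The groups did not overlap. Trim30c took 13.9%, 11.9% and 10.9% of the TRIM reads in HTR2C-positive medium and 14.7%, 13.4% and 15.0% in HTR2C-negative medium. Its shares overlapped, with P1 above N2. Trim30a took 36.3%, 34.7% and 36.0%, against 35.8%, 38.9% and 34.6%, and overlapped. Trim25 took 9.33%, 9.52% and 10.9%, against 8.07%, 8.15% and 8.73%, and the members outside the cluster other than Trim25 took 14.0%, 14.7% and 14.0%, against 10.9%, 11.6% and 12.2%. Both of the last shares were higher in every library with HTR2C-positive medium. Fewer reads of one gene raise the share of the others, so these shares are not independent of each other, and they carry no adjustment for GC content.

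**Figure D4:**
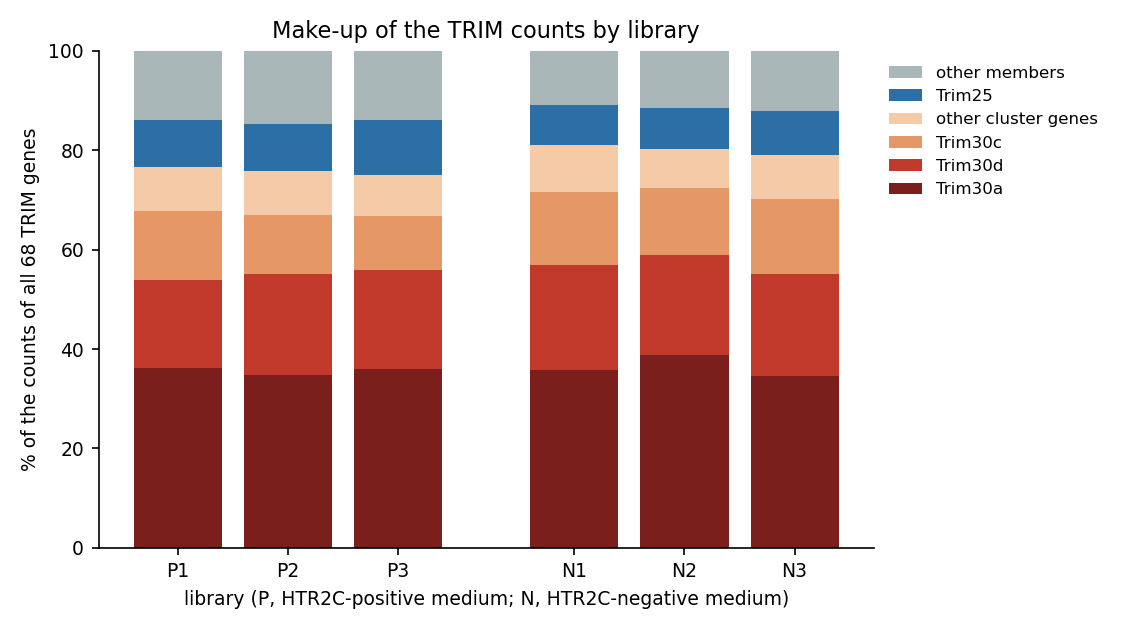
Share of the counts of all 68 TRIM genes taken by each gene or group of genes, as stacked bars in % for the 3 libraries of HTR2C-positive medium (P1 to P3) and the 3 of HTR2C-negative medium (N1 to N3). The cluster genes together fill 75.1% to 76.7% of each P bar and 79.1% to 81.0% of each N bar.

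Trim25 and the other SPRY members outside the cluster gave a mixed picture. Trim25 had 236, 217 and 264 CPM in P1, P2 and P3, against 227, 222 and 238 CPM in N1, N2 and N3. The groups overlapped and differed by 0.06 on the log2 scale (SE 0.14, unadjusted p = 0.677). Trim26 had 49.2, 42.6 and 47.4 CPM, against 34.4, 33.9 and 43.4 CPM, which is 0.32 on the log2 scale (SE 0.16, unadjusted p = 0.0740). Trim35 had 87.0, 61.9 and 44.6 CPM, against 41.6, 56.7 and 45.3 CPM, which is 0.43 on the log2 scale (SE 0.22, unadjusted p = 0.0743). For Trim26 N3 lay within the other group, and for Trim35 P3 did. Without N3 the value of Trim26 was 0.46 with an unadjusted p of 0.0366. That of Trim35 was 0.17 without P1, 0.57 without N2 (unadjusted p = 0.0309) and 0.64 without P3 (unadjusted p = 0.00890). Trim21, a cytosolic antibody receptor and ligase, had 29.1, 23.8 and 19.4 CPM, against 20.9, 17.9 and 22.5 CPM, with an unadjusted p of 0.247. Of the 13 tested genes in this class, 9 had a positive and 4 a negative log2 fold change, against 52.1% positive over all tested genes. The median was 0.32, against 0.02 over all tested genes. In each direction 1 gene (Trim41 and Trim65) passed an unadjusted p under 0.05. That was 15.4% of the class, near the 16.6% of all tested genes. With the trend of GC content and length removed the median was 0.21, beside 0.04 over all genes. The median GC content of the class was 51.4%, against 48.9% over all tested genes. Trim27, named here because it was called in 1 alternative, had 13.7, 18.7 and 13.7 CPM against 4.86, 17.2 and 10.6 CPM, a log2 fold change of 0.49 with an unadjusted p of 0.178. It was 0.14 without N1, 0.98 without N2 (unadjusted p = 0.00871) and 1.07 (adjusted p = 0.0169) without both P1 and N2. The fit without both called 10.9% of all genes.

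Trim13 had 41.4, 43.1 and 40.4 CPM in P1, P2 and P3, against 59.4, 42.8 and 51.1 CPM in N1, N2 and N3. N2 fell within the other group, and the log2 fold change was -0.29 (SE 0.16, unadjusted p = 0.0938), or 0.097 with the trend of GC content and length removed. Without N2 it was -0.40 with an unadjusted p of 0.0366. Trim59, a membrane-anchored relative, had very few reads, with 7, 28 and 16 counts in HTR2C-positive medium and 0, 4 and 11 counts in HTR2C-negative medium. The groups overlapped, and the log2 fold change of 1.57 had an unadjusted p of 0.112. It was 0.93 without P2, 1.06 without N1 and 2.79 without N3 (unadjusted p = 0.0345). Trim36, a COS box protein that binds microtubules, had 12.04, 10.99 and 14.93 CPM against 11.23, 14.44 and 10.02 CPM. Trim56, an antiviral ligase, had 15.5, 17.1 and 21.7 CPM against 15.3, 14.2 and 24.4 CPM. Both overlapped, with log2 fold changes of 0.09 and 0.01. The members known as regulators of antiviral or NF-κB signalling cut across the classes. Of the 18 tested, 0 were higher and 2 lower (Trim23 and Trim65) at an unadjusted p under 0.05, 11.1% against 16.6% of all genes, and their median on the log2 scale was -0.11, or 0.05 with the trend removed.

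Base composition ran through the family as through the whole table. Over the 10162 tested genes with a transcript GC value, the Pearson correlation of GC content with the log2 fold change was 0.52, and over the 35 members it was 0.40. Both describe genes that share the same 6 libraries and are no test. The median log2 fold change was -0.32 in the lowest and 0.50 in the highest of 10 equal bins of genes by GC content. Among the 18 members at or above the median GC content of all genes 13 were positive with a median of 0.40, and among the 17 below it 4 were positive with a median of -0.22. With the trend removed 1 member was higher (Trim41) and 1 lower (Trim65) at an unadjusted p under 0.05, against 9.88% of all genes in either direction (5.09% higher and 4.79% lower), and 23 of the 35 were positive with a median of 0.11. Whether the trend came from the medium or from the handling of the libraries cannot be told apart, since it separates the groups.

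**Figure D5:**
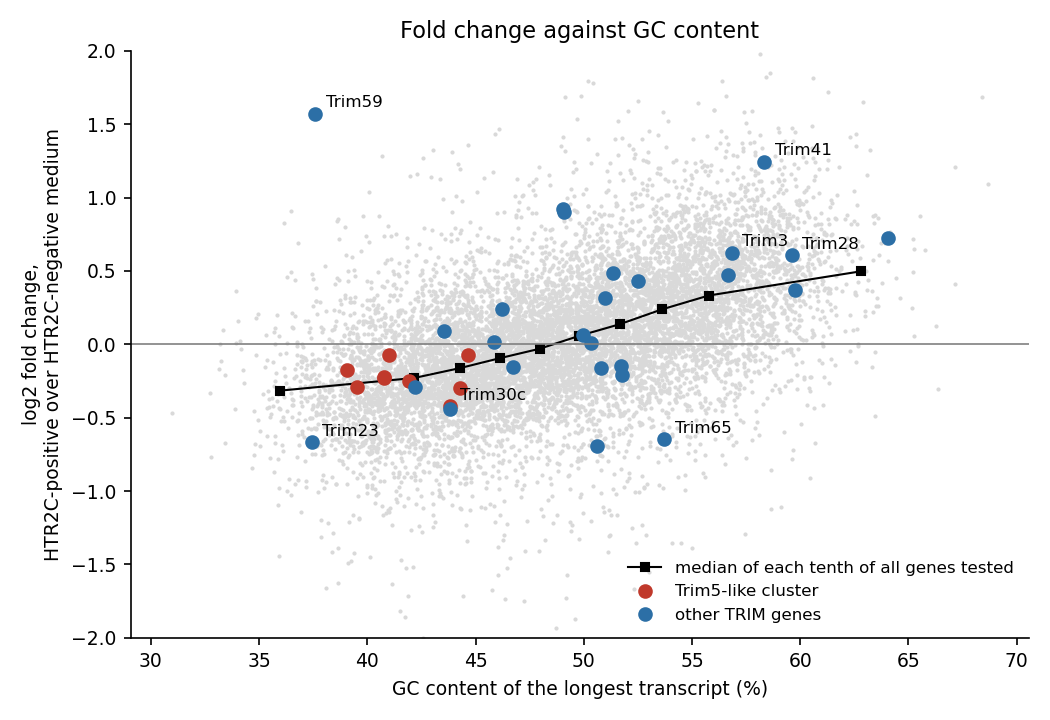
Log2 fold change of HTR2C-positive over HTR2C-negative medium against the GC content (%) of the longest transcript for all tested genes (grey), the TRIM cluster genes and the other tested TRIM genes, with black squares for the median of each of 10 equal bins of genes by GC content and 17 genes beyond the axis. The black line runs from -0.32 to 0.50, and the cluster genes have a median GC content of 41.0%, against 48.9% over all genes.

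Members without a test were silent or nearly so. Of the 33, 15 had no read in any library, among them the muscle genes Trim54, Trim55, Trim63 and Trim72 and the neuronal genes Trim9 and Trim67. A count of 0 allows up to 3 counts per library, for counting error only. Scaled by library totals without the TMM factors, that is 0.191 to 0.193 CPM in HTR2C-positive medium and 0.187 to 0.234 CPM in HTR2C-negative medium. The other 18 had reads in at least 1 library with at most 10 counts in any, and for 9 of them no library exceeded 3 counts. Trim34b was the only cluster gene among them.

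Genes that work with the TRIM ligases were read from the same fit. Of 3 tested TRIM family genes with other names, Pml, the organiser of nuclear bodies, had 43.8, 54.6 and 54.6 CPM in P1, P2 and P3, against 36.3, 40.4 and 42.1 CPM in N1, N2 and N3. Its groups did not overlap, with a log2 fold change of 0.36 (SE 0.16, unadjusted p = 0.0400, adjusted p = 0.275) and 0.05 with the trend of GC content and length removed. Mefv, which encodes the inflammasome protein pyrin, had a log2 fold change of 0.17 and Mid1 of -0.63, with unadjusted p-values of 0.405 and 0.239. Among the 19 tested genes for E2 enzymes and ubiquitin, an unadjusted p under 0.05 was met by 0 with a higher and 3 with a lower value, and the median was -0.06. They were Ube2n and Ube2v2, which together build lysine-63 chains, and Ube2w, which modifies N-termini. Their log2 fold changes were -0.40 for Ube2n (SE 0.17), -0.59 for Ube2v2 (SE 0.18) and -0.49 for Ube2w (SE 0.17). With the trend removed they were -0.07 for Ube2n, -0.20 for Ube2v2 and -0.15 for Ube2w, none with an unadjusted p under 0.05. In that fit 4 other genes of the 19 met this p with a higher value and 0 with a lower one, against 5.09% and 4.79% of all genes. They were Ube2d2a, Rps27a, Ube2e2 and Ube2k, at 0.62, 0.55, 0.52 and 0.32 on the log2 scale, named after their values were seen. The edgeR adjusted p-values, without removal of the trend, were 0.263 for Ube2n, 0.142 for Ube2v2 and 0.178 for Ube2w.

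Of 24 tested genes for signalling proteins on which TRIM ligases act, 3 with a higher and 3 with a lower value met an unadjusted p under 0.05. The median log2 fold change over the 24 was 0.22, or 0.18 with the trend removed. Tank, an adaptor of the kinase TBK1, had 340, 222 and 276 CPM in P1, P2 and P3, against 498, 384 and 397 CPM in N1, N2 and N3, without overlap and at -0.61 on the log2 scale (SE 0.18, edgeR adjusted p = 0.141). DESeq2 called Tank with an adjusted p of 0.0253, and with the trend removed in edgeR the value was -0.26 with an unadjusted p of 0.151. Ikbke, a kinase that activates interferon regulatory factors, had 158, 105 and 140 CPM, against 67.6, 111 and 78.2 CPM, which is 0.65 on the log2 scale (SE 0.20, edgeR adjusted p = 0.157) and 0.57 with the trend removed (unadjusted p = 0.0102). DESeq2 called Ikbke as well, with an adjusted p of 0.0480. Irf5, a transcription factor of inflammatory macrophages, had 135, 58.0 and 69.0 CPM, against 35.7, 72.2 and 36.8 CPM, which is 0.86 on the log2 scale (SE 0.32, edgeR adjusted p = 0.210, DESeq2 adjusted p = 0.307) and 0.59 with the trend removed (unadjusted p = 0.0545). For Ikbke and Irf5 the groups overlapped through N2. Of 30 tested interferon-stimulated genes, 4 met that p with a lower value and 0 with a higher one, and the median was -0.03. Ifit2, Ifit3 and Ifit1, which encode proteins that bind RNA or block its translation, had log2 fold changes of -0.68, -0.47 and -0.37 with groups that did not overlap, and -0.39, -0.29 and -0.07 with the trend removed. Their adjusted p-values in edgeR were 0.117 for Ifit2, 0.162 for Ifit3 and 0.258 for Ifit1. DESeq2 called Ifit2 and Ifit3, with adjusted p-values of 0.00720 and 0.0248, and gave Ifit1 0.0947. The shares past the threshold were 15.8% of the E2 list, 25.0% of the signalling list and 13.3% of the interferon list, against 16.6% of all tested genes.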

How the data were processed

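Per the labels' protocols, Trizol was used for total RNA and the VAHTS Universal V6 kit for libraries. Tools listed by the submitters' processing notes are HISAT2, StringTie, fastp and edgeR, with build GRCm39 and no versions. The sources used here do not give how strand and multiply mapped reads were counted. What was deposited is a table of raw read counts per gene, per the file headers, and of the authors' FPKM, which equals the count divided by length and by the library total (largest relative difference 3.80e-07) and served for levels between genes.

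Counts were tested in R 4.3.3 with edgeR 4.0.16 (filterByExpr, TMM factors, robust quasi-likelihood F test, no covariates), with Benjamini-Hochberg adjustment over all 10177 tested genes and a threshold of 0.05. Positive log2 fold changes mean higher in HTR2C-positive medium. Each SE is the absolute log2 fold change divided by the square root of the edgeR F statistic. CPM values are TMM-scaled, except the floors for a count of 0, which use library totals alone. Alternatives used DESeq2 1.42.0, limma 3.58.1, other scalings and filters, a replicate block, left-out libraries, and offsets from a smooth of log2 CPM on transcript GC content and length per library (mgcv 1.9.3, prior count 2). GC content and shared stretches of 100 bases came from GENCODE M21 transcripts, which hold all 68 member IDs. The members, lists and alternatives were chosen with earlier results of these data known. Named members are the 12 with the smallest p, the 8 with the highest FPKM and the most abundant of each class. Of other lists the 3 genes with the smallest p are named. Members named beyond that were chosen after their values were seen. Counts limit precision as given by the floors in the text, and reads carry no molecular identifiers. Protein sequences were not used here.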

Additional observations from a re-analysis of the deposited data

How the results depend on the processing

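The log2 fold changes of the 17 TRIM genes named by rule were recomputed under 16 alternatives, and 252 of the values stayed on the same side of 0 and of the adjusted threshold. This number counts Trim41 with DESeq2, which gave it no adjusted p, as not called. The size of a value did not enter it, so values much nearer to 0 are included. No gene was called over all genes with the default settings, against 422 without a filter on low counts, 386 with DESeq2 and 1107 without P1 and N2. Leaving out 1 library gave 0 to 206 (186 without P1, 206 without N2). TRIM genes called were 1 without the filter (Trim41, log2 fold change 1.26) and 3 without P1 and N2 (Trim28, Trim27 and Trim30c). Those fits called 2.84% and 10.9% of all genes. TRIM genes at an unadjusted p under 0.05 were 6 by default, 2 with the trend of GC content and length removed, 3 with that and the replicate block, 10 without P1 and N2 and 1 to 9 with 1 library left out. Those with higher values were 3 by default, 5 without the filter, 1 with the trend removed and 1 to 5 with 1 library left out. Those with lower values were 3 by default, 0 with library totals alone, 1 with the trend removed, 1 with that and the block, 6 without P1 and N2 and 0 to 4 with 1 library left out. Over all tested genes the share at this p was 16.6% by default (7.90% higher and 8.71% lower). It was 9.88% with the trend removed (5.09% higher and 4.79% lower). Without P1 and N2, 12.7% of all genes had a lower value at this p. Shares over all genes are not given here for the other settings, so the counts there have no background beside them. The members' median was -0.07 by default, 0.098 with library totals alone, -0.14 with a filter of 1 CPM in 3 libraries, 0.11 with the trend removed, 0.096 with that and the block, -0.014 without P1 and N2 and -0.13 to 0.10 with 1 library left out.

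The sign turned with the trend removed, without and with the block, for Trim30d (0.061 and 0.062), Trim13 (0.097 and 0.096), Trim30a (0.087 and 0.092), Trim12a (0.153 and 0.151) and Trim56 (-0.075 and -0.042). It also turned without 1 library for Trim25 (-0.0096 without P3, within -0.0096 to 0.125 over the left-out libraries), Trim36 (-0.040 without P3 and -0.010 without N3, within -0.040 to 0.259) and Trim56 (-0.133 without P3, -0.093 without N1 and -0.132 without N2, within -0.133 to 0.314), and for Trim56 without P1 and N2 (-0.022). The cause of these turns was not tested. Same-numbered libraries of the groups correlated in their deviations from the group means at -0.15, -0.23 and 0.053. Deviations from means of 3 libraries depend on each other, so these values cannot tell whether the numbers pair the libraries. With the replicate block 5 TRIM genes had an unadjusted p under 0.05 and the median was -0.083. At 3 libraries a group the standard errors of the named members were 0.14 to 0.31, which limits what sizes of difference could be called.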
